A study of Mus musculus with 43 samples.

Results

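The genes described here are the 9 members of the insulin-like growth factor (IGF) axis named Igf1, Igf2, Igf1r and Igfbp2 to Igfbp7, out of 52636 genes in each of the deposited tables. They were chosen by gene name, and all 9 have a row in both the organoid and the fibroblast table. Igf1 and Igf2 are secreted growth factors, and Igf1r is the receptor tyrosine kinase through which both ligands signal to the PI3K-Akt and MAP kinase pathways. The products of Igfbp2 to Igfbp6 are secreted proteins that bind the ligands with high affinity, prolong their half-life and limit or localise their access to the receptor, and several of them also act without IGF. Igfbp7 is a distant relative that binds the ligands weakly and is better known as a matrix-associated secreted protein of vessels and stroma. In the gut, ligands and most binding proteins are mainly made by mesenchymal cells, while epithelial cells carry the receptor.

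Organoids were grown from colon crypts of adult mice, 2 months old, that carried the Vil-cre/ERT2 transgene, in which the villin promoter drives a tamoxifen-dependent Cre in the gut epithelium. Mice of both genotypes received tamoxifen, so that Apc was recombined in Apc flox/flox animals and left intact in Apc wt/wt animals, which gave tumoroids (lines F11, M3 and M14) and colonoids (lines M41, M40 and M1), each line from an individual mouse. Organoids grew in Matrigel as epithelium alone, with growth factors in the medium, and received 6 days of vehicle (Ve, DMSO), 4 µM regorafenib (R4), 8 µM regorafenib (R8) or 1 µM 5-FU, with 3 lines in each of 8 groups and 24 libraries in all. Fibroblasts came from the colon of C57B/6 mice (lines M3, M3(2), M1(2) and M11) and were kept in medium with serum for 7 days with vehicle (Ve), 4 µM regorafenib (R4), 10 µM regorafenib (R10), 1 µM autogramin-2 (A1) or 4 µM regorafenib with 1 µM autogramin-2 (R4A1), with 4 lines in each group except R10, which lacks M11, and 19 libraries in all. Regorafenib is a multi-kinase inhibitor, 5-FU is an antimetabolite used in colorectal cancer, and autogramin-2 is an inhibitor of autophagy. The fibroblast lines M1(2) and M11 are described by the labels only, and organoid and fibroblast lines with the same name are separate lines. Levels are given in CP20M, the reads counted on a gene scaled to 20000000 counted reads per library.

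Between 512599 and 22368152 reads were counted per organoid library, with a median of 15697953, and between 7949970 and 12825921 per fibroblast library. The colonoid library M41 R4 was the shallowest, so that 1 read was worth 39 CP20M there and at most 4.57 CP20M in any other organoid library. Called results that include it are given with and without it. In organoids the summed level of 7 epithelial markers ranged from 106341 to 349165 CP20M, while 8 fibroblast markers summed to 12 to 123 CP20M and Lum was at 0 in 24 of 24 libraries. In fibroblasts the same 8 markers summed to 110998 to 186156 CP20M, Epcam did not exceed 3 CP20M, and Krt8 and Cdx2 were each at 0 in 18 of 19 libraries, although Krt19 was read in all 19 at 162 to 1512 CP20M. The 4 endothelial markers summed to 747 to 20692 CP20M in fibroblasts, highest in line M3(2).

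The promoters of the genes with the largest responses are printed first, since the results turn on Igfbp7 and Igfbp3 in organoids and on Igfbp2 and Igfbp5 in fibroblasts. Each line holds the 250 bases before a RefSeq transcription start (build GRCm38.p6), 5′ to 3′ on the strand of the gene, with motif matches in capitals. Windows were available for all 9 members, 13 in total. The Igfbp7 window is chr5:77408046-77408295 on the minus strand, the Igfbp3 window chr11:7213924-7214173 on the minus strand, the first of 2 Igfbp2 windows chr1:72824230-72824479 on the plus strand and the Igfbp5 window chr1:72874866-72875115 on the minus strand.
Igfbp7: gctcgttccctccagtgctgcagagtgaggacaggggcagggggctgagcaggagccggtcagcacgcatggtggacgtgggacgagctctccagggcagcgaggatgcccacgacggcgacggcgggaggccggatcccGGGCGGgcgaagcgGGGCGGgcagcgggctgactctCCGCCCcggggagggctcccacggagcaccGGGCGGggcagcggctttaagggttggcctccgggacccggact
Igfbp3: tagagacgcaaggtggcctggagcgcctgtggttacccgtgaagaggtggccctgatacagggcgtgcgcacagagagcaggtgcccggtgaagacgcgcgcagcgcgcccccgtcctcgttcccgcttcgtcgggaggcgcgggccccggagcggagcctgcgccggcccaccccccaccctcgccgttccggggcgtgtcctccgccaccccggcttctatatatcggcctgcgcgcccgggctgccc
Igfbp2: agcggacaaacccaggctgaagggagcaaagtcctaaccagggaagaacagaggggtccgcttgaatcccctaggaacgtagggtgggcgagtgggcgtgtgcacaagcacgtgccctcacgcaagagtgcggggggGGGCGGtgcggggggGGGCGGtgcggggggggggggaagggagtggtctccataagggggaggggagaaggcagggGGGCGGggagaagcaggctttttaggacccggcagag
Igfbp5: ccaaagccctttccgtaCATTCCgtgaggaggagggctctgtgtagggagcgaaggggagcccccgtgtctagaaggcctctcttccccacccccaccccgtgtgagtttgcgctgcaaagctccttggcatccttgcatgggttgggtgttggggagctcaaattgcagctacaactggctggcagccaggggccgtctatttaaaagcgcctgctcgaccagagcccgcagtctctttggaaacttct

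The motifs searched on both strands were the GC box GGGCGG, the TATA box TATAAA, the FOXO motif GTAAACA, the TEAD motif CATTCC and the AP-1 motif TGANTCA, none of which overlapped another match in these windows. The Igfbp7 window is 74% GC and holds 4 GC boxes, and the printed Igfbp2 window is 67.2% GC and holds 3, whereas 32.7% of the 32851 promoter windows of the same length hold at least 1 GC box and the median window is 52.4% GC. The second Igfbp2 window, chr1:72825137-72825386, is 56.4% GC and holds no GC box and 1 AP-1 motif, 39 bases before its start. The Igfbp3 window is 73.2% GC and holds none of the 5 motifs. The Igfbp5 window is 58.8% GC and holds 1 TEAD motif, 233 bases before the start, a motif present in 12.6% of all windows. TATA, FOXO and AP-1 motifs are present in 12.4%, 3.17% and 6.75% of all windows. Among the other members, the Igf1r window is 77.6% GC with 2 GC boxes, and the Igf2 windows are 47.6% to 68.8% GC with 0 to 2 GC boxes and 0 to 2 TEAD motifs. The windows of Igfbp4, Igf1 and Igfbp6 are 69.2%, 52.8% and 49.6% GC and hold no GC box. Those of Igfbp4 and Igfbp6 hold 1 TATA box each, 28 and 148 bases before the start. The Igf1 window holds 1 AP-1 motif, 37 bases before the start. All these matches describe the letters only.

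In GRCm38, Igfbp2 (chr1:72824503-72852474, plus strand) and Igfbp5 (chr1:72857932-72874884, minus strand) lie tail to tail with 5457 bp between them. Igfbp7 spans chr5:77349240-77408041 on the minus strand and overlaps Polr2b, an RNA polymerase II subunit gene on the opposite strand with mean levels of 2000 CP20M in organoids and 1348 CP20M in fibroblasts. Whether reads were counted by strand is not stated, so reads from the stretch that Igfbp7 and Polr2b share cannot be assigned with certainty. Igfbp3 (chr11:7206086-7213923) and Igf2 (chr7:142650766-142666816) are on the minus strand, and Igf1 (chr10:87858265-87937042), Igf1r (chr7:67952827-68233668), Igfbp4 (chr11:99041244-99054392) and Igfbp6 (chr15:102144362-102149511) are on the plus strand. Igf1 and Igf2 overlap the antisense genes Igf1os and Igf2os, whose mean levels were below 2 CP20M in both tables.

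In organoids in vehicle, the receptor Igf1r was read at 790 to 1922 CP20M. The binding protein Igfbp3 was at 22 to 371 CP20M and Igfbp7 at 90 to 161 CP20M, and every other member was at or under 48 CP20M. Igfbp7 was thus low in all 6 vehicle libraries, under the 200 CP20M set as the filter on low values in the tests below. Igfbp3 was under that level in tumoroids F11 and M14, at 22 and 95 CP20M. Per kilobase of exon, colonoids held 96.3 ± 28.7 CP20M per kb of Igfbp3, 96.2 ± 32.0 of Igfbp7 and 70.5 ± 36.2 of Igf1r (SD, n = 3), and the ranges of these 3 genes overlapped. Tumoroids held 97.0 ± 18.3 CP20M per kb of Igf1r, 84.4 ± 8.95 of Igfbp7 and 41.4 ± 41.1 of Igfbp3, again with overlapping ranges. Over all 24 organoid libraries, only 6 reads of Igfbp2, 5 of Igfbp5 and 7 of Igfbp6 were counted, so that these genes were at 0 in 19, 20 and 19 libraries. Igfbp4 reached at most 88 CP20M and Igf2 at most 40 CP20M, the latter 1 read in the M41 R4 library.

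In vehicle-treated fibroblasts, all 9 genes were read in all 4 lines. Igfbp7 was highest per kilobase at 5480 ± 469 CP20M per kb (SD, n = 4), followed by Igfbp6 at 862 ± 374 and by Igf1r at 446 ± 7.29, and the ranges of these 3 genes did not overlap. Igfbp2 (249 ± 134 CP20M per kb), Igf1 (135 ± 34.6), Igfbp4 (123 ± 93.2), Igfbp5 (97.7 ± 68.1) and Igfbp3 (87.3 ± 38.8) came next, each with a range that overlapped that of its neighbour in this order. Igf2 was lowest at 12 ± 9.9 CP20M per kb, under the range of every other member. The spread between lines was small for Igf1r and Igfbp7 and wide for Igfbp4 and Igfbp5. Organoid and fibroblast tables were scaled separately and are set side by side without a test.

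**Figure D1:**
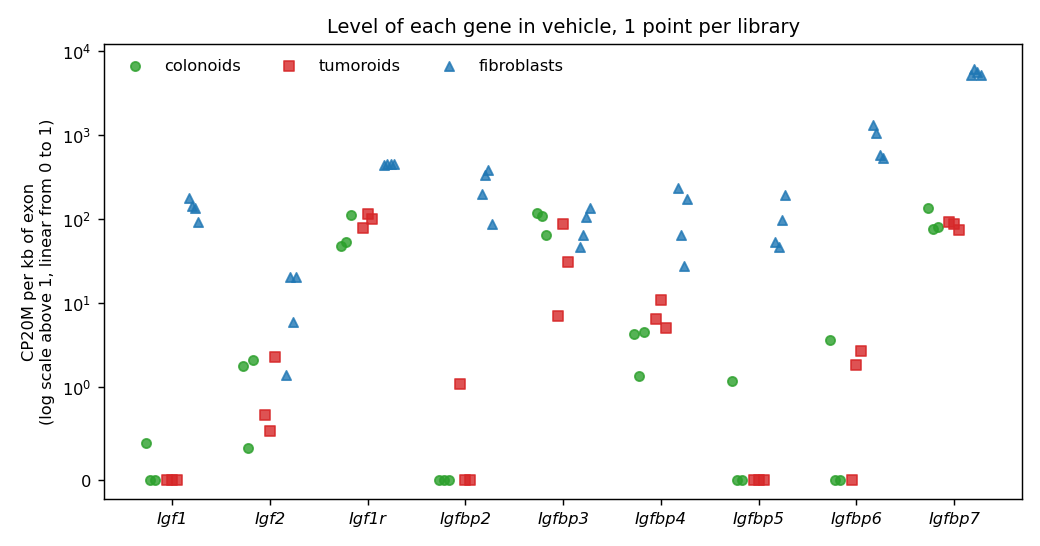
Level of each gene in vehicle in CP20M per kb of exon (y axis, log scale above 1 and linear from 0 to 1), with 1 point per library for 3 colonoid lines, 3 tumoroid lines and 4 fibroblast lines. Igf1, Igfbp2, Igfbp5 and Igfbp6 lie at or near 0 in the organoid lines, and Igfbp7 is highest in the fibroblast lines at 5480 ± 469 CP20M per kb (SD, n = 4).

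The first comparison asked whether deletion of Apc alone changed these genes in vehicle. None of the 3 genes that passed the filter on low values (200 CP20M in 2 libraries) was called, at an adjusted p under 0.01 and a log2 fold change of at least 1 by limma, thresholds that 0.141% of 11320 tested genes passed. The fit also held the regorafenib libraries, and Igfbp7 passed the filter only through them. In vehicle it was at 90 to 161 CP20M, so its comparison between genotypes is one of low values. Igfbp3 was read at 371, 333 and 200 CP20M in colonoids M41, M40 and M1, and at 22, 272 and 95 CP20M in tumoroids F11, M3 and M14, so that the groups overlapped. The log2 fold change of Igfbp3 was -1.48 (standard error 0.53, adjusted p = 0.187, limma). Those of Igf1r and Igfbp7 were 0.55 (standard error 0.40) and -0.13 (standard error 0.68), with 95% confidence intervals of -0.31 to 1.40 and -1.58 to 1.32.

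The second comparison asked how organoids of both genotypes responded to regorafenib. Igfbp7 rose in every line at both doses. In vehicle it was read at 161, 92 and 96 CP20M in colonoids M41, M40 and M1 and at 111, 105 and 90 CP20M in tumoroids F11, M3 and M14. In R4 the levels, in the same order of lines, were 8935, 750 and 2092 CP20M in colonoids and 1051, 2700 and 1120 CP20M in tumoroids. In R8 they were 1340, 995 and 2686 CP20M in colonoids and 623, 2205 and 1176 CP20M in tumoroids. The lowest of the 12 regorafenib libraries (623 CP20M) lay above the highest of the 6 vehicle libraries (161 CP20M), and within lines the ratio to vehicle ran from 8.15 to 55.5 in R4 and from 5.61 to 28.0 in R8.

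Over both genotypes and both doses, the log2 fold change of Igfbp7 was 3.66 (95% confidence interval 2.78 to 4.55, 12.7-fold on the scale of CP20M + 20, adjusted p = 2.82e-05, limma). Igfbp7 and Igfbp3 passed the threshold of an adjusted p under 0.001 and a 1.5-fold change, which 4.97% of the 11320 genes tested passed, 2.82% as higher in regorafenib. The median log2 fold change over all tested genes was -0.10 in this contrast, -0.14 in colonoids alone and 0.11 between the doses, and the changes given here are not corrected for it. The library M41 R4 held the highest Igfbp7 level and without it the log2 fold change over both genotypes was 3.43 (adjusted p = 4.08e-06, limma).

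Within colonoids, Igfbp7 rose by 3.87 on the log2 scale (standard error 0.59, 14.6-fold, adjusted p = 0.000786, limma), where 1.46% of tested genes passed, and by 3.40 without the library M41 R4 (adjusted p = 0.000179). When any 1 of the 6 lines was left out, this adjusted p ranged from 0.00216 to 0.0166, so the call in colonoids alone did not hold. Within tumoroids, the log2 fold change was 3.46 (standard error 0.59, adjusted p = 0.00346), short of the threshold that 0.203% of genes passed, although it passed without the M41 R4 library (adjusted p = 0.000266), which enters the shared estimate of the spread. The response did not differ between the genotypes beyond its error, with a difference of -0.42 (95% confidence interval -2.19 to 1.36, adjusted p = 1.00, limma), in a test that 0.00883% of genes passed. Beside these values, the 8 fibroblast markers summed to 12 to 123 CP20M in vehicle and to 13 to 118 CP20M in R4 and R8, and the 4 endothelial markers to 4 to 37 CP20M in vehicle and 0 to 79 CP20M in R4 and R8, where the highest was the M41 R4 library. The 4 immune markers summed to 419 to 573 CP20M in vehicle, 541 to 906 CP20M in R4 and 596 to 3245 CP20M in R8, with Cd68 at 32 to 2659 CP20M over all 24 libraries and Ptprc at most at 7 CP20M, and their part in the result was not tested. In bulk RNA, more cells of a type and more RNA per cell cannot be told apart.

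Igfbp3, the main carrier of IGF in blood and a growth-inhibiting protein in several epithelia, rose as well. From the vehicle levels given above, it reached 1327, 2204 and 1274 CP20M in R4 colonoids and 716, 758 and 1235 CP20M in R4 tumoroids. In R8 it was read at 348, 827 and 568 CP20M in colonoids and at 300, 287 and 489 CP20M in tumoroids. All 6 lines were higher in R4 than in vehicle, with no overlap between the groups, whereas in R8 5 of 6 lines were higher and the groups overlapped, since M41 fell slightly under its own vehicle level. Over both genotypes the log2 fold change was 1.98 (95% confidence interval 1.29 to 2.67, 3.94-fold, adjusted p = 0.000475, limma), and 2.01 without the M41 R4 library (adjusted p = 0.000344). Leaving out a line gave adjusted p-values of 0.0004 to 0.00764, which passed the threshold of 0.001 only without tumoroid line M3. Within colonoids and tumoroids Igfbp3 did not pass (log2 fold changes 1.60 and 2.36, adjusted p = 0.0287 and 0.00689, limma).

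The dose comparison asked whether 8 µM differed from 4 µM. Igfbp3 was lower in R8 than in R4 in 6 of 6 lines, by 1.14 to 1.87 on the log2 scale, yet the test did not pass over all genes (log2 fold change -1.37, standard error 0.37, adjusted p = 0.114, limma), where 0.451% of genes did. Igfbp7 was lower in R8 in 3 of 6 lines and higher in the other 3, with a log2 fold change of -0.49 (standard error 0.48) that was -0.02 without the M41 R4 library. Igf1r was lower in R8 in 5 of 6 lines (log2 fold change -0.49, standard error 0.28, adjusted p = 0.424, limma).

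The receptor Igf1r was read at 790, 878 and 1884 CP20M in vehicle colonoids and at 1310, 1922 and 1656 CP20M in vehicle tumoroids. In R4 it was 1366, 1309 and 2895 CP20M in colonoids and 1325, 2737 and 2438 CP20M in tumoroids, which is higher than in vehicle in 6 of 6 lines, with overlapping groups. In R8 it was 1922, 1268 and 1378 CP20M in colonoids and 726, 1707 and 1395 CP20M in tumoroids, lower than in vehicle in 4 of 6 lines. Over both doses and genotypes the log2 fold change of Igf1r was 0.26 (95% confidence interval -0.26 to 0.78, adjusted p = 0.468, limma).

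The ligand Igf1 was at 0 in 5 of the 6 vehicle libraries, where a count of 0 allows up to 2.99 to 4.27 CP20M (3 reads, counting error only), and 1 read (4 CP20M) was counted in the other, colonoid M41. In regorafenib at least 1 read was counted in each of 12 libraries, some within the same limit of 3 reads. In R4 it was at 40, 10 and 15 CP20M in colonoids and at 10, 13 and 54 CP20M in tumoroids, and in R8 at 16, 5 and 5 CP20M in colonoids and at 3, 43 and 58 CP20M in tumoroids. The value of 40 CP20M in M41 R4 was 1 read. Colonoid M1 R8 and tumoroid F11 R8 also held 1 read each, and colonoid M40 R8 held 2. Together the 12 regorafenib libraries held 188 reads of Igf1, and the 6 vehicle libraries 1 read. Most of the 188 reads came from tumoroids M14 R4, M14 R8 and M3 R8, with 47, 47 and 41 reads. Igf1 did not reach the filter on low values in any organoid library, and with the filter left out its log2 fold change of 0.91 (standard error 0.26, adjusted p = 0.0396, limma) was short of the threshold of 0.001. The levels remained far under those of fibroblasts, where Igf1 ranged from 627 to 2619 CP20M. Igf2 held 29 reads in the 6 vehicle and 46 in the 12 regorafenib libraries, at 2 to 13 and 0 to 40 CP20M.

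The 5-FU comparison asked whether a cytotoxic drug moved the same genes, against the same vehicle libraries. Igfbp7 was read at 429, 118 and 524 CP20M in colonoids and at 259, 1346 and 369 CP20M in tumoroids, higher than in vehicle in 6 of 6 lines, although the lowest (M40) overlapped the vehicle range. Igfbp3 was read at 711, 1219 and 501 CP20M in colonoids and at 136, 656 and 369 CP20M in tumoroids, also higher in 6 of 6 lines. The log2 fold changes were 1.70 for Igfbp7 (standard error 0.52, adjusted p = 0.0847, limma) and 1.47 for Igfbp3 (standard error 0.40, adjusted p = 0.0524), both short of the threshold of 0.05 that, with a 1.5-fold change, 2.35% of 11562 genes passed. When the line entered the fit as a blocking factor (line blocked), so that libraries of 1 line were compared with each other, 5.05% of genes passed and both were called (adjusted p = 0.0102 for Igfbp7 and 0.00816 for Igfbp3, limma), and both were also called without the M41 R4 library, which enters only the shared spread (adjusted p = 0.0212 and 0.0312). Within colonoids neither passed (0.0432% of genes did), and within tumoroids Igfbp7 passed only with the block (log2 fold change 2.12, adjusted p = 0.26 without and 0.0425 with it, where 0.182% and 2.48% of genes passed). Igf1r, at 712 to 1926 CP20M, had a log2 fold change of -0.03 (standard error 0.28), and Igf1 held 8 reads in the 6 libraries.

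**Figure D2:**
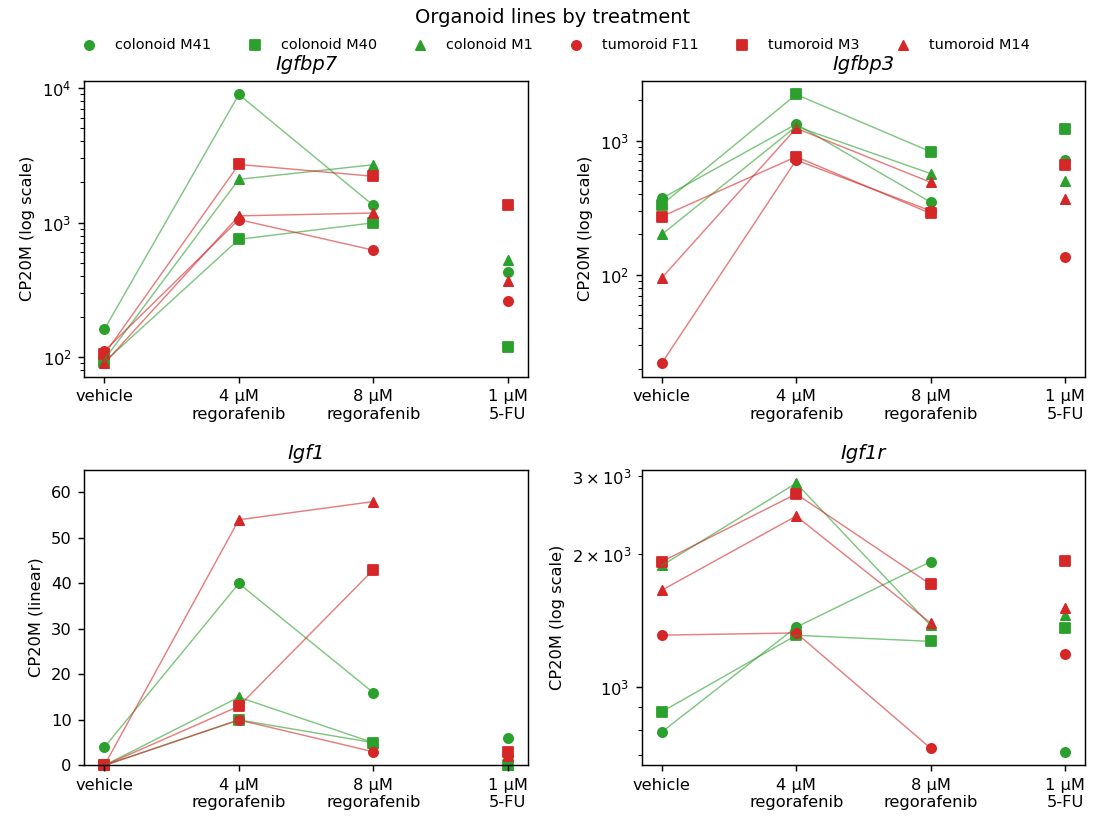
Levels of Igfbp7, Igfbp3, Igf1 and Igf1r in CP20M (y axis, log scale except for Igf1) in each of 6 organoid lines by treatment, with lines joining the libraries of 1 organoid line in vehicle, 4 µM and 8 µM regorafenib and unjoined points for 5-FU. Igfbp7 lies at 90 to 161 CP20M in vehicle and at 623 to 8935 CP20M in regorafenib, and Igfbp3 is highest at 4 µM in each of the 6 lines.

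In fibroblasts, where 8 of the 9 genes passed the filter on low values (Igf2 did not), the members called with regorafenib were Igfbp2 and Igfbp5. Igfbp2, a binding protein abundant in fetal tissue and in many tumors, rose in every line. In vehicle it was read at 359, 610, 708 and 159 CP20M in lines M3, M3(2), M1(2) and M11. In R4 it was read at 4198, 7738, 4899 and 2287 CP20M in the same order, and in R10 at 9310, 16705 and 9041 CP20M in M3, M3(2) and M1(2). The groups did not overlap, and within lines the ratio to vehicle was 6.92 to 14.4 in R4 and 12.8 to 27.4 in R10.

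The log2 fold change of Igfbp2 was 3.39 in R4 (95% confidence interval 2.41 to 4.36, 10.5-fold, adjusted p = 0.000656, limma) and 4.74 in R10 (95% confidence interval 3.69 to 5.79, 26.7-fold, adjusted p = 1.9e-05). Line M11, lowest in vehicle at 159 CP20M, has no R10 library but enters the vehicle mean of this fit. The R10 value lay above the change within every line, 3.64 to 4.73, and was 4.46 with line blocked. Igfbp2 was the only member called in R4, where 1.02% of 11032 genes passed an adjusted p of 0.05 and a 1.5-fold change, and 1 of 2 called in R10, where 7.33% did. Without line M3 the call in R4 was lost (log2 fold change 3.36, adjusted p = 0.0596), while that in R10 held without any 1 line (adjusted p up to 0.00489). Igfbp2 was higher in R10 than in R4 in 3 of 3 lines, by 0.88 to 1.15 on the log2 scale, which passed only with line blocked (log2 fold change 1.07, adjusted p = 0.00609, limma).

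Igfbp5, which lies next to Igfbp2 and is a conserved matrix-bound binding protein, moved the other way. It was read at 316, 280, 587 and 1165 CP20M in vehicle, at 192, 111, 296 and 418 CP20M in R4, and at 85, 77 and 130 CP20M in R10. Every R10 value lay under every vehicle value, while R4 overlapped vehicle even though each of the 4 lines was lower. In R10 the log2 fold change of Igfbp5 was -2.17 (95% confidence interval -3.41 to -0.93, adjusted p = 0.0202, limma), and -1.80 with line blocked. Line M11, highest in vehicle, has no R10 library but enters the vehicle mean of the fit without the block. Within lines the R10 changes were -2.02 to -1.63, all smaller in size than -2.17. The R10 call was lost without line M3, M3(2) or M1(2) (adjusted p = 0.121, 0.0769 and 0.145). In R4 the log2 fold change was -1.06 (standard error 0.54, adjusted p = 0.412), and it passed with line blocked (adjusted p = 0.000113, limma).

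Igfbp6, a binding protein with a preference for Igf2, was read at 1447, 1161, 637 and 590 CP20M in vehicle, at 851, 456, 448 and 289 CP20M in R4 and at 561, 511 and 322 CP20M in R10. It was lower than vehicle in 4 of 4 lines in R4 and in 3 of 3 in R10, with log2 fold changes of -0.88 (standard error 0.36, adjusted p = 0.271, limma) and -0.95 (standard error 0.39, adjusted p = 0.119). With line blocked it was called at both doses (adjusted p = 0.000146 in R4 and 8.72e-06 in R10, log2 fold change -1.17). Igfbp4, which is cleaved by pregnancy-associated plasma protein A, was read at 1012, 284, 122 and 753 CP20M in vehicle, at 551, 423, 242 and 250 CP20M in R4, and at 316, 175 and 114 CP20M in R10. In R4 it was higher in 2 lines and lower in 2, and in R10 it was lower in 3 of 3 lines (log2 fold change -1.06, standard error 0.66, adjusted p = 0.325, and 0.0132 with line blocked). With the block, 3 members were called in R4 and 4 in R10, against 7.22% and 13.8% of all tested genes.

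Igfbp7 and Igfbp3, which rose in organoids, did not pass the thresholds in fibroblasts. Igfbp7 was read at 6235, 7404, 6688 and 6174 CP20M in vehicle, at 8679, 8572, 9533 and 7542 CP20M in R4, and at 7011, 7857 and 7813 CP20M in R10. R4 did not overlap vehicle, but the log2 fold change of 0.37 (95% confidence interval 0.18 to 0.56, adjusted p = 0.0503, limma) was under 1.5-fold, also with line blocked (adjusted p = 0.00028), and it was 0.19 in R10. Igfbp3 was read at 146, 203, 329 and 415 CP20M in vehicle, at 218, 423, 401 and 490 CP20M in R4, and at 180, 236 and 231 CP20M in R10, with log2 fold changes of 0.50 (standard error 0.31, adjusted p = 0.526) and -0.23 (standard error 0.34, adjusted p = 0.73). The difference between organoids and fibroblasts was not tested, since the tables were scaled separately.

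Igf1, the ligand of the stroma, was read at 1734, 1387, 1316 and 899 CP20M in vehicle, at 2619, 2065, 1788 and 849 CP20M in R4, and at 1576, 1198 and 1140 CP20M in R10. In R4 3 lines were higher than vehicle and M11 was lower (log2 fold change 0.38, standard error 0.32, adjusted p = 0.671, limma). From R4 to R10, Igf1 was lower in 3 of 3 lines, a difference called only with line blocked (log2 fold change -0.61, adjusted p = 0.00281). Igf1r was read at 7327, 7521, 7458 and 7619 CP20M in vehicle, at 8483, 8902, 6904 and 7721 CP20M in R4, and at 8628, 8320 and 8588 CP20M in R10, with log2 fold changes of 0.09 (95% confidence interval -0.08 to 0.26) in R4 and 0.19 (0.00 to 0.37) in R10. Igf2 was read at 8, 117, 34 and 117 CP20M in vehicle, at 33, 140, 123 and 159 CP20M in R4, and at 38, 150 and 21 CP20M in R10, and it was not tested because 1 of 19 libraries reached the filter. Between the doses no member was called without the block (0.145% of genes were), and 4 were called with it (6.02% of genes), Igf1, Igfbp2, Igfbp5 and Igfbp3, the last at adjusted p = 0.0498.

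**Figure D3:**
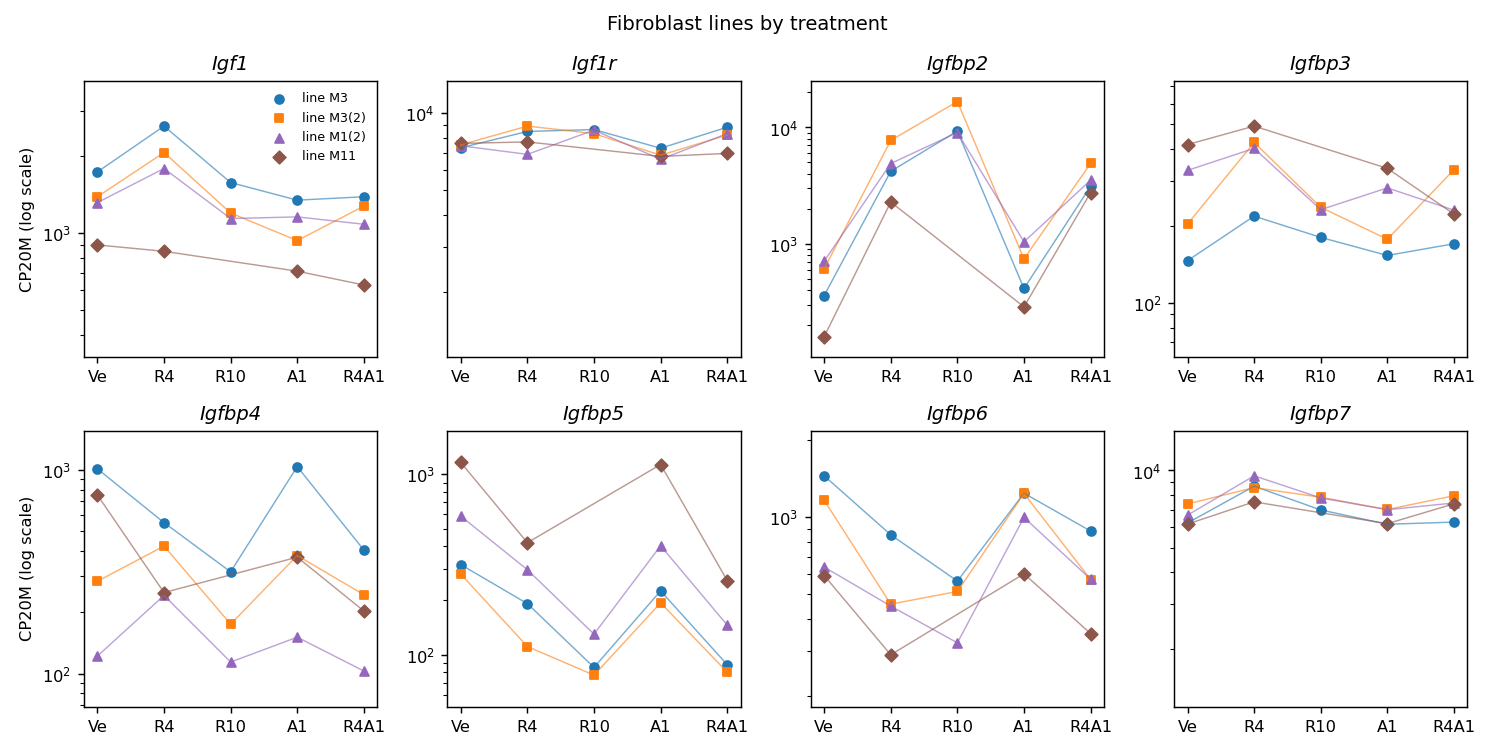
Levels of 8 genes in CP20M (y axis, log scale with a range set per gene) in each of 4 fibroblast lines by treatment, with lines joining the libraries of 1 fibroblast line and no R10 library for M11. Igfbp2 is above every vehicle value in R4, R10 and R4A1, Igfbp5 is lowest in R10 and R4A1, and Igf1r stays between 6603 and 8902 CP20M.

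Autogramin-2 alone was compared with vehicle to see what the inhibitor did without regorafenib. None of the 8 tested members changed by limma, and none of the 11032 genes did (0% called, 120 at an unadjusted p under 0.05, and 0 with line blocked). Igfbp2 was read at 413, 742, 1040 and 287 CP20M, higher than vehicle in 4 of 4 lines by 0.19 to 0.78 on the log2 scale, with a log2 fold change of 0.45 (95% confidence interval -0.53 to 1.42). Igf1 was read at 1345, 935, 1157 and 710 CP20M, lower than vehicle in 4 of 4 lines (log2 fold change -0.36, 95% confidence interval -1.03 to 0.31). Igfbp5, at 226, 194, 402 and 1135 CP20M, was also lower in each line, and the groups overlapped. Igf1r, at 7295, 6851, 6603 and 6778 CP20M, was lower than vehicle in 4 of 4 lines too, with a log2 fold change of -0.12 (95% confidence interval -0.29 to 0.05). Igfbp7 (6164, 7041, 7024 and 6197 CP20M), Igfbp3 (153, 177, 281 and 335 CP20M), Igfbp4 (1038, 380, 151 and 373 CP20M) and Igfbp6 (1237, 1234, 995 and 599 CP20M) had log2 fold changes of 0.00, -0.16, -0.07 and 0.13.

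The combination was compared with vehicle and with R4 alone. In R4A1, Igfbp2 was read at 3121, 4905, 3521 and 2754 CP20M, above every vehicle value, and rose by 3.06 on the log2 scale (95% confidence interval 2.09 to 4.04, 8.36-fold, adjusted p = 0.00196, limma). It was the only member called against vehicle, where 1.66% of genes passed, and the call was lost without line M3 (adjusted p = 0.0782). Igfbp5 was read at 88, 80, 146 and 258 CP20M, below every vehicle value, with a log2 fold change of -1.80 (standard error 0.54, adjusted p = 0.085), called with line blocked (adjusted p = 5.39e-07) or without line M11 (adjusted p = 0.0182). Igfbp6 at 880, 569, 571 and 350 CP20M and Igfbp4 at 404, 244, 103 and 203 CP20M were lower than vehicle in 4 of 4 lines each, and both passed only with the block (adjusted p = 0.00184 and 0.0312), where 6.99% of genes did.

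Against R4 alone, the addition of autogramin-2 gave no call among the members, and 0.00906% of genes passed. Igf1 was read at 1387, 1275, 1083 and 627 CP20M in R4A1, lower than in R4 in 4 of 4 lines, with a log2 fold change of -0.68 (standard error 0.32, adjusted p = 0.87, limma) that was called with line blocked (adjusted p = 0.00504). Igfbp5 was likewise lower in 4 of 4 lines and was called with the block (log2 fold change -0.74, adjusted p = 0.0199), when 1.43% of genes were. Igfbp2 was lower than in R4 in 3 of 4 lines, with a log2 fold change of -0.32 (95% confidence interval -1.30 to 0.65), so that a modest difference in either direction was not resolved. Igfbp7 (6284, 7969, 7466 and 7410 CP20M) and Igfbp3 (170, 331, 230 and 222 CP20M) were each lower than in R4 in 4 of 4 lines without a call.

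Sums of cell type markers were set beside these fibroblast results, and they did not all move alike. The 4 smooth muscle markers, among them Acta2 and Cnn1, summed to 23981 to 55543 CP20M in vehicle, 39705 to 93575 CP20M in R4, 72458 to 88641 CP20M in R10 and 39983 to 83363 CP20M in R4A1, against 22054 to 53357 CP20M in A1. The 4 endothelial markers summed in vehicle to 877, 7281, 1525 and 2135 CP20M in M3, M3(2), M1(2) and M11, and in R4 to 1345, 20692, 5021 and 6439 CP20M, while in R10 they were at 1201, 4750 and 1392 CP20M. The R10 sum was higher than vehicle in M3 and lower in M3(2) and M1(2). In A1 and R4A1 these markers summed to 747 to 4858 and 1509 to 12722 CP20M. The 8 fibroblast markers summed to 128577 to 185853 CP20M in vehicle and 117959 to 186156 CP20M in R4. Their sums were 129367 to 136896 CP20M in R10, 121110 to 167387 CP20M in A1 and 110998 to 146550 CP20M in R4A1. The 4 immune markers summed in vehicle to 566, 371, 477 and 1099 CP20M in M3, M3(2), M1(2) and M11, in R4 to 413, 292, 309 and 586 CP20M, in R10 to 371, 365 and 342 CP20M without M11, and in R4A1 to 400, 260, 278 and 411 CP20M. These immune sums were lower than vehicle in every line with regorafenib, as Igfbp5 and Igfbp6 were. In A1, without regorafenib, they were 448, 363, 484 and 631 CP20M in the same order of lines. In vehicle they were highest in M11, where Igfbp5 was highest and Igfbp6 lowest. The part of these markers in the changes of Igfbp2, Igfbp5 and Igfbp6 was not tested.

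**Figure D4:**
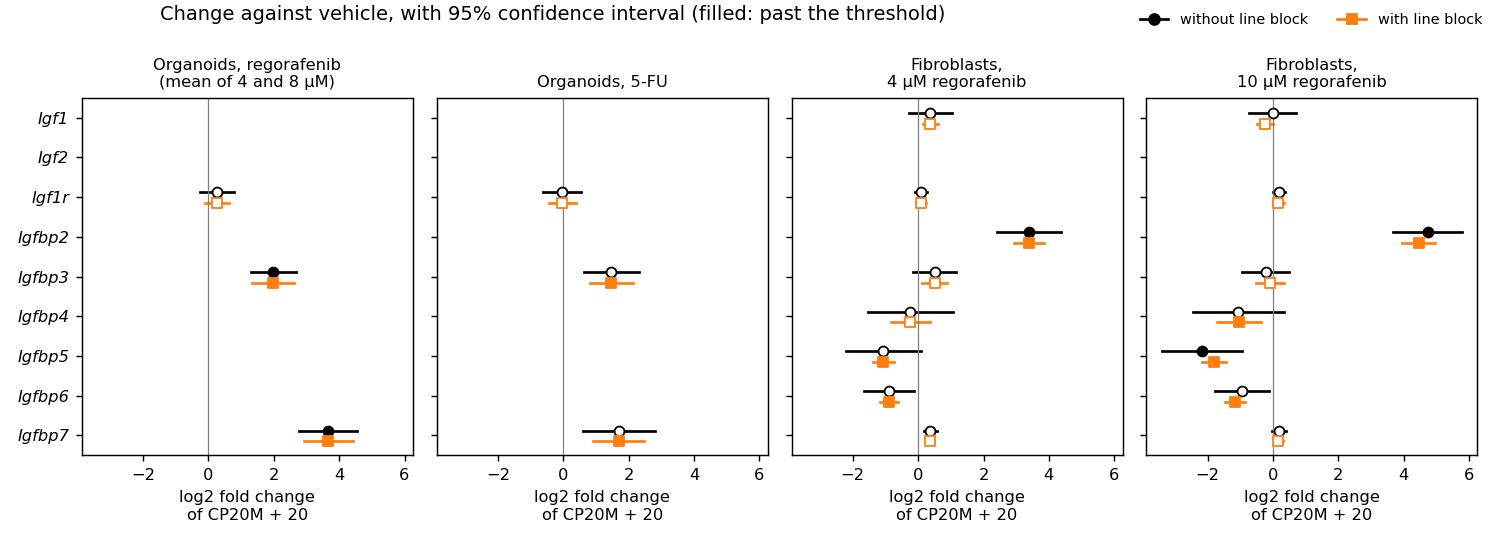
Log2 fold change of CP20M + 20 against vehicle (x axis) for each gene that passed the filter, in organoids with regorafenib (mean of both doses), organoids with 5-FU, and fibroblasts with 4 µM and 10 µM regorafenib. Black circles are the fit without and orange squares the fit with line blocked, bars are 95% confidence intervals and filled symbols passed the threshold: Igfbp7 and Igfbp3 are to the right in organoids, and Igfbp2 to the right and Igfbp5 to the left in fibroblasts.

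The other genes of the pathway were followed in 2 lists. The first holds 15 genes for further receptors, binding proteins, the proteases that release IGF from its binding proteins and regulators of Igf2 RNA, and the second 23 genes of signalling under the receptor. In organoids 4 of the 15 and 22 of the 23 passed the filter in the regorafenib fit. None was called over both genotypes, and their median log2 fold changes were 0.30 and 0.08 beside -0.10 over all tested genes. Igf2r, the receptor that clears Igf2, is named here after its values were seen, and it did not pass the threshold (log2 fold change 1.07, standard error 0.21, adjusted p = 0.00154, limma), with colonoid levels of 1837 to 2721 CP20M in vehicle, 3122 to 5767 CP20M in R4 and 5508 to 14850 CP20M in R8. Its tumoroid levels were 3407 to 4004 CP20M in vehicle, 5461 to 7044 CP20M in R4 and 3563 to 7749 CP20M in R8. The log2 fold change of Igf2r was 1.55 in colonoids (adjusted p = 0.00287, limma) and 0.60 in tumoroids (adjusted p = 0.245), and the difference between the genotypes did not pass (-0.95, adjusted p = 1.00). Irs2, an adaptor of the insulin and IGF receptors, had a log2 fold change of -1.19 (standard error 0.28, adjusted p = 0.00593) and was called with line blocked (adjusted p = 0.000647), where 6.67% of genes were. No gene of either list was called with 5-FU or between genotypes.

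In fibroblasts 10 of the 15 and all 23 passed the filter. Igf2bp2, an RNA-binding protein of Igf2 transcripts, was the only gene called, and it fell in R4 by 0.63 on the log2 scale (standard error 0.13, adjusted p = 0.0173, limma), from 1197 to 1418 CP20M in vehicle to 682 to 1068 CP20M. None was called in R10, A1 or R4A1 or between the treatments. With line blocked, 3 of the 10 and 2 of the 23 genes were called in R10, where 13.8% of all tested genes were, namely Pappa (log2 fold change 0.88), Pappa2 (-1.55) and Htra1 (0.67), which encode secreted proteases of binding proteins, and the receptor adaptors Irs1 (-0.62) and Shc1 (-0.62). In R4 3 of the 10 and 1 of the 23 were called, beside 7.22% of all tested genes, namely Pappa2 (-0.65), the imprinted RNA H19 (1.34), Igf2bp2 (-0.63) and the transcription factor Foxo1 (0.60). In R4A1 the calls were Pappa (0.64) and Pappa2 (-0.95), 2 of the 10 and 0 of the 23 beside 6.99% of all tested genes, and between R10 and R4 the call was Pappa2 (-0.91), 1 of the 10 and 0 of the 23 beside 6.02%. The median log2 fold changes of the lists were -0.16 and -0.02 in R4 and 0.01 and 0.05 in R10, beside 0.00 and -0.04 over all genes.

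The genes whose levels ran most like those of each member were ranked by Pearson's r of log2(CP20M + 20) across all libraries of a table, which share treatment groups and lines. Over 24 organoid libraries, Igfbp7 ran most like Cdkn2a (r = 0.88), Dnal1 (0.86) and Azin2 (0.85), Igfbp3 most like Acsbg1 (0.91), Nbl1 (0.89) and Ptpn9 (0.88), and Igf1r most like Notch2 (0.85), Il17rd (0.84) and Crim1 (0.81). Over 19 fibroblast libraries, Igfbp2 ran most like Nog (0.96), Fgf13 (0.95) and Plcb4 (0.95). Igfbp5 ran most like Gm37389, Pmp2 and Ccl8 (0.96 each), and Igfbp6 most like Rbm47 (0.96), Jade1 (0.96) and Axl (0.95). Igf1 ran most like Eva1a (0.90), Tceal8 (0.88) and Lum (0.87), and Igf1r most like Ppp1r12a (0.88), Elmsan1 (0.87) and Bcl9l (0.86). For Igfbp3 the nearest were Serpina3n (0.93), Tec (0.90) and Flrt3 (0.87), for Igfbp4 Col7a1 (0.85) and Nrp1 (0.83), and for Igfbp7 Gm26850 (0.84), Id1 (0.83) and Plcl1 (0.82).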

How the data were processed

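Bulk RNA libraries of 24 organoid and 19 fibroblast cultures were used, grouped by the condition, line and genotype in their labels. Library names and genotype labels placed 3 libraries with 5-FU as tumoroids against their titles, which say colonoid. Per the labels and methods, the authors trimmed paired-end reads (Trimmomatic 0.36), aligned them to GRCm38 (STAR 2.5.3a), counted them per Ensembl gene (HTSeq 0.9.1) and scaled each library to 20000000. The labels name an Ovation SoLo kit and the methods a directional NEBNext kit for organoids, and strand-specific counting is not given in the sources used here. The deposited values are a signal per gene, CP20M, rounded up to whole numbers, with library totals of 20006722 to 20019739 in organoids and 20008567 to 20015495 in fibroblasts. The legends call them per kilobase, but genes of all lengths share 1 step within a library, so they were taken as not divided by length. Whole reads were recovered from that step, and at least 99.6% of the values of each library came out whole after rounding up. This check could not fail in tumoroids M3 Ve, M3 R4 and M14 with 5-FU, where the step was under 1 CP20M (0.995, 0.894 and 0.991). Where the step was just above 1 it could hardly fail. Depth limits low genes most in the library M41 R4.

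Values were analysed as log2(CP20M + 20). limma 3.58.1 (R 4.3.3) tested the genes that reached 200 CP20M in 2 or more of the libraries fitted, with 1 coefficient per group, on 18 organoid libraries (vehicle and regorafenib), all 24 (5-FU) or 19 fibroblast libraries, and p-values were adjusted by Benjamini-Hochberg over all genes tested. The thresholds were an adjusted p of 0.01 and a log2 fold change of 1 for genotype, 0.001 and 1.5-fold for regorafenib in organoids, 0.05 for the difference between genotypes and 0.05 and 1.5-fold otherwise. Treatments of a table share their vehicle libraries. Overlap between groups and the direction in each line are given for the members only. Neither was counted over all genes, so they describe the values and are no test. Fits and the recovery of reads were tested on simulated data. The simulated fits held no effect of the line, so they do not bear on libraries that share a line. Per-kilobase levels used exon lengths of the GENCODE M21 annotation, which holds 52489 of the 52636 genes, and promoters came from RefSeq on GRCm38.p6.

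Each line comes from 1 mouse and recurs across treatments, so libraries were checked for pairing. After group means were subtracted, libraries of the same line correlated at 0.43, 0.50 and 0.72 on average in the 3 fits, against -0.21, -0.25 and -0.23 between lines, and the fit with the line as a block is given where it changed a call. No line has both genotypes. Replicates were no copies of each other (chi-square per gene of at least 8.86 over 51 pairs). Alternatives were the pseudocount, the filter, TMM scaling, edgeR 4.0.16 on the recovered reads, only the groups compared, each line left out, and the fit without the library M41 R4. The text names all 9 members, the genes called in 2 lists of pathway genes (at most 4 per list and comparison) and the 3 genes most correlated with each tested member, of which 1 is not reported here. The members and lists were chosen with earlier results of these data known. Without the block, the p-values measure the spread between libraries of a group and treat libraries of 1 line as independent. With the block, they measure the spread left after line means are removed.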

Additional observations from a re-analysis of the deposited data

How the results depend on the processing

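Of 902 values of members under the alternatives set out in the methods, 829 kept their direction and side of the threshold, 23 no longer passed, 25 newly passed and 25 changed sign. The values with a changed sign had been within 0.49 of 0 on the log2 scale and had adjusted p-values of at least 0.876 (limma or edgeR). For regorafenib in organoids of both genotypes, 2 members were called, and 1 (Igfbp7) with a pseudocount of 1 CP20M, without the filter or with edgeR, and 1 to 2 with a line left out. In colonoids 1 was called, and 0 with a pseudocount of 100 CP20M, without the filter, with edgeR, with only the groups compared or with any line left out. In tumoroids 0 were called, 1 without the library M41 R4 with or without the block, and 0 to 1 with a line left out. Between the doses in organoids 0 were called, and 1 with a pseudocount of 100 CP20M. For 5-FU 0 were called, 1 with edgeR, 2 with the line as a block, 2 without M41 R4, 2 without it and with the block, and 0 to 1 with a line left out. For 5-FU in tumoroids 0 were called, 1 with the block and 2 without M41 R4 and with the block. Leaving out M41 R4 together with the block was chosen after seeing the data.

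In fibroblasts with the line as a block, the number of members called went from 1 to 3 in R4, from 2 to 4 in R10, from 1 to 4 in R4A1, from 0 to 4 between R10 and R4 and from 0 to 2 between R4A1 and R4. In the same order, the share of all tested genes called went from 1.02% to 7.22%, 7.33% to 13.8%, 1.66% to 6.99%, 0.145% to 6.02% and 0.00906% to 1.43%. With a line left out, the number of members called was 0 to 1 in R4, 1 to 3 in R10 and 0 to 2 in R4A1. Over all comparisons, the block lost 0 of the calls of members and added 16. In each comparison that gained a call of a member, the share of all genes called rose as well.

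The changed signs were as follows, as log2 fold changes, and the causes were not tested. Without M41 R4 the genotype difference in the response of Igfbp7 was 0.054, and 0.022 with the block too. With edgeR, Igf1r was 0.047 for regorafenib in tumoroids and -0.033 for 5-FU in colonoids, Igf1 was 0.0044 in R10 and Igfbp7 0.013 in A1. With TMM scaling Igf1 was 0.025 in R10 and Igfbp7 0.014 in A1. With a line left out, Igfbp7 ranged from -0.25 to 0.094 between genotypes in vehicle and from -0.75 to 0.030 between the doses, Igf1r from -0.13 to 0.16 for regorafenib in tumoroids, from -0.17 to 0.073 for 5-FU and from -0.26 to 0.24 for 5-FU in colonoids. In fibroblasts the ranges were -0.61 to 0.19 for Igfbp4 in R4, -0.18 to 0.086 for Igf1 in R10, -0.22 to 0.23 for Igfbp4, -0.038 to 0.25 for Igfbp6 and -0.028 to 0.020 for Igfbp7 in A1, -0.38 to 0.12 for Igfbp3 in R4A1, -0.29 to 0.14 for Igfbp6 between R10 and R4, and -0.070 to 0.069 for Igf1r between R4A1 and R4. The number of genes called over the whole table moved with the block too, from 113 to 796 in R4 and from 809 to 1519 in R10.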
